A study of Malus hupehensis with 3 samples.

Results

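The miRNAs mdm-miR828 and mdm-miR858 and the gene models paired with them in the leaves of *Malus hupehensis*, a wild apple, were examined. The members were all miRNA names that begin with mdm-miR828 or mdm-miR858, and all gene models that the deposited degradome records pair with one of those names. This gave 3 names (mdm-miR828a, mdm-miR828b and mdm-miR858) with 2 distinct mature sequences, among 85 distinct known sequences and 172 predicted ones. It also gave 14 gene models of the 271 in the degradome file, of which 129 were paired with a known miRNA. A degradome library collects the 5′ ends of cut RNAs, so that reads which begin opposite the middle of a paired miRNA can mark a cut there. The records give no background count to set such reads against.

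The A library came from adult phase leaves taken at the tops of 18 6-year-old trees, and the J library from juvenile phase leaves taken at the base of these trees. The leaves of each phase were pooled, so that A and J are 1 small RNA library each and phase cannot be told apart from the place of the leaf on the tree. The degradome library was made from J RNA only, so a site has no value in A. The small RNA libraries held 16.2 M (A) and 13.5 M (J) clean reads, with M for 1000000, and all levels below are reads per M clean reads (RPM). No condition had a replicate: there is no test of the phase, and the intervals cover counting error only, which PCR copies of 1 molecule can exceed.

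In plants, a miRNA guides an ARGONAUTE protein to an RNA with a nearly complementary stretch, and the RNA is cut between the bases opposite miRNA bases 10 and 11. miR828 and miR858 both pair with mRNAs of R2R3-MYB transcription factors, a large plant family named for the imperfect repeats of its DNA-binding domain. Among these MYBs are activators and repressors of the phenylpropanoid pathway, which makes lignin precursors, flavonols, anthocyanins and proanthocyanidins, as well as MYBs that set the fate of epidermal cells. In Arabidopsis, miR828 is also known to cut the non-coding TAS4 RNA, which starts the production of secondary small RNAs.

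The mature sequences are shown because every site below is read against them. Capitals mark the seed, which is bases 2 to 8 from the 5′ end.
mdm-miR858: uUCGUUGUcuguucgaccuga
mdm-miR828a and mdm-miR828b: uCUUGCUCaaaugaguauucca
mdm-miR858 had 21 nt and mdm-miR828 had 22 nt. The seeds of the members differed from each other, and 0 other known sequences and 0 predicted sequences had the seed of either.

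The sites of mdm-miR858 took 6 distinct forms over 13 gene models, shown because they differ at few bases and some gene models share a form. Each is the stretch of the gene model opposite the miRNA, 5′ to 3′, with capitals at bases that form a mismatch or a G:U wobble with the miRNA. All gene models below carry the prefix MDP0000 and the annotation that the study gave them, by their Arabidopsis counterpart.
MYB5 and duplicated homeodomain-like superfamily protein, 6 gene models: CcaggCcgaacagacaaTgaa
MYB12, 2 gene models: CcaggGcgaacagacaaTgaa
MYB3, 1 gene model: CcaggAcgaacagacaaTgaa
MYB4 and MYB7, 2 gene models: CcGggGcgaacagacaaTgaa
MYB66, 1 gene model: CcGggtcgaacagaTaaTgaa
high response to osmotic stress 10, 1 gene model: CcTggtcgaacagaTaaTgaa
The sites of mdm-miR828 lay on gene models annotated as MYB66 and differed from each other at 2 of 22 bases.
MYB66, MDP0000124555: tggaatTctcatttgagcaaga
MYB66, MDP0000578193: tggaaCactcatttgagcaaga

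mdm-miR858 had a count of 238 reads in A (exact Poisson 95% interval 208.7 to 270.2) and 404 in J (365.6 to 445.4). Its level was 14.7 RPM (12.9 to 16.7) in A and 29.8 RPM (27.0 to 32.9) in J, and these intervals did not overlap. Among the 85 known sequences it ranked 30th by reads in A and 33rd in J. The J over A ratio was 2.03, with a Clopper-Pearson 95% interval of 1.73 to 2.40, when the libraries were scaled to clean reads.

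A sequence was called higher in J where the ratio was at least 2, the interval did not hold 1 and a library had 10 or more reads. By this rule mdm-miR858 was among the 22 of 59 known sequences tested (37.3%) that were higher in J, while 5 were higher in A. Its ratio was the smallest of those 22. Some sequences of a family may share reads, so the 59 are not all separate cases. For example, the sequences of mdm-miR156p to s and of mdm-miR156x to aa both had 158 reads in A and 7244 in J. Those of mdm-miR172a to c and mdm-miR172m to o both had 70 and 42. Most known sequences were higher in J on this scale: the median ratio of the 56 with 10 or more reads in both libraries was 1.61 (0.69 on the log2 scale), and mdm-miR858 lay 1.26-fold above that median. With the sum of known miRNA reads as the scale, the ratio of mdm-miR858 turned to 0.865 (0.735 to 1.02), and the calls over all known sequences turned to 10 higher in J and 22 higher in A. In those terms mdm-miR858 made up 0.0304% of the known miRNA reads in A and 0.0263% in J. With the 4 other scales tried, the ratio lay between 1.26 (1.07 to 1.49), with the median ratio set to 1, and 1.70, with raw counts, above 1 with intervals that did not hold 1 but short of the ratio of 2. The interval under known miRNA totals, the only scale with a ratio below 1, held 1.

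**Figure D1:**
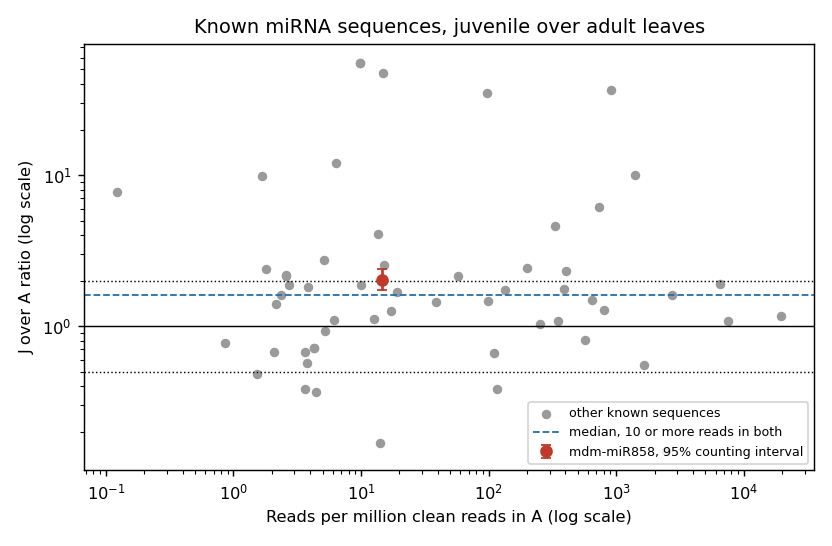
J over A ratio of each known sequence (vertical axis, log scale) against its RPM in A (horizontal axis, log scale), for 58 sequences with 10 or more reads in a library and reads in both. mdm-miR858 (red, with its 95% counting interval) sits at 2.03, on the dotted line of the call at 2 and above the dashed median of 1.61.

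The known sequences with the ratios most like that of mdm-miR858, among 54 others with 50 or more reads in all, were mdm-miR396a, mdm-miR393d to f and mdm-miR167b to g. For mdm-miR396a, 925 reads were counted in A against 1648 in J, and the ratio was 2.13 (1.97 to 2.31). The sequence of mdm-miR393d to f had 42 and 75 reads, a ratio of 2.14 (1.45 to 3.20). That of mdm-miR167b to g had 105776 and 166874 reads, a ratio of 1.89 (1.87 to 1.90), which fell just short of the call. Likeness was the difference of log2 ratios between 2 libraries, which was 0.07, 0.07 and 0.11 for these sequences, and all their intervals overlapped that of mdm-miR858.

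mdm-miR828 was at the limit of detection. Its sequence, shared by mdm-miR828a and mdm-miR828b, had 0 reads in A, with an exact Poisson 95% interval of 0 to 0.227 RPM, and 1 read in J, or 0.0738 RPM (0.00187 to 0.411). A count of 0 was taken to allow 3 reads, which is 0.185 RPM in A. In J, 76 of the 85 known sequences had a read, and in A 71. A difference between A and J was not detectable at this depth, and no fold is given because both counts lie under 3 reads.

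The degradome records gave mdm-miR858 sites on 13 gene models and mdm-miR828 sites on 2. No other miRNA had a record on any of these 14 gene models. The record gives a position, a count at the site, taken here to be the reads that begin there, and a score, which equalled the number of mismatches plus 0.5 for each wobble in all 2204 records of the file. The smallest count in the file was 25, so weaker sites cannot be seen in it.

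The gene models are grouped here by the role of their Arabidopsis counterparts, and their role in apple was not tested. Gene models with the same mdm-miR858 count may rest on the same reads, also across groups, as set out below. MYB12, an activator of flavonol genes in Arabidopsis, had sites on MDP0000140609 and MDP0000887107, both at base 300 with a count of 180. The repressor-type MYBs of the phenylpropanoid pathway had sites on 3 gene models: MYB3 on MDP0000184538 (base 309, count 180), MYB4 on MDP0000031172 (base 300, count 368) and MYB7 on MDP0000210851 (base 300, count 368). All of these sites were paired with mdm-miR858 alone.

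MYB5, which acts in the seed coat and trichomes of Arabidopsis, was the annotation with the most members. Its sites lay at base 303 of 4 gene models, with a count of 170 on MDP0000133817 and MDP0000143276 and of 180 on MDP0000226215 and MDP0000253904. The gene models annotated as duplicated homeodomain-like superfamily protein share the Arabidopsis counterpart TT2, a MYB that switches on proanthocyanidin genes in the seed coat. MDP0000318013 had a count of 1555 at base 243, and MDP0000437717 had 368 at base 303. The count of 1555 was exceeded by 1 of the 81 sets of reads of known miRNAs, which are defined below within each family.

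MYB66, known in Arabidopsis as WEREWOLF, a regulator of root epidermal cell fate, was the only annotation paired with both miRNAs. MDP0000124555 had an mdm-miR858 site at base 345 with a count of 62 and an mdm-miR828 site at base 379 with a count of 285. MDP0000578193 had an mdm-miR828 site at base 322 with a count of 130. The last gene model, MDP0000931057, annotated as high response to osmotic stress 10, a MYB linked to cold and osmotic stress in Arabidopsis, had an mdm-miR858 site at base 345 with a count of 62.

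MDP0000124555 was thus the 1 gene model of 14 with sites of both miRNAs. The sites lay 34 bases apart, the mdm-miR858 site upstream, with 12 bases between the stretches that pair with each miRNA. The count at the mdm-miR828 site was 4.60 times that at the mdm-miR858 site, with exact Poisson 95% intervals of 252.9 to 320.1 and 47.5 to 79.5 reads that did not overlap. The smaller count is shared with MDP0000931057, so the reads at the mdm-miR858 site cannot be assigned to MDP0000124555 with certainty.

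**Figure D2:**
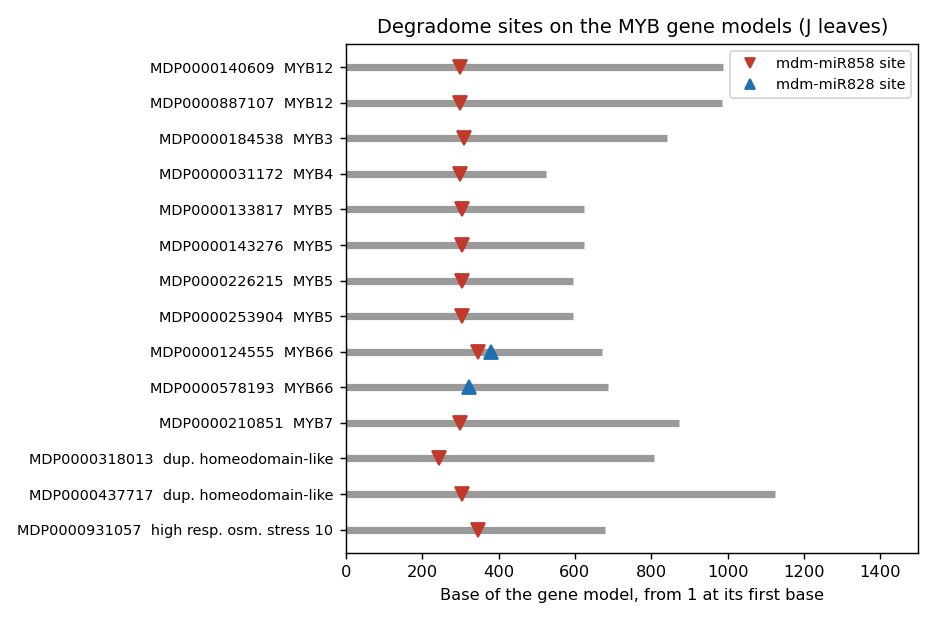
Sites of mdm-miR858 (red, pointing down) and mdm-miR828 (blue, pointing up) along the 14 gene models (grey bars, from the first base to the length in the file). Most red sites line up between bases 300 and 309, and MDP0000124555 alone carries both colours, at bases 345 and 379.

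The positions of the mdm-miR858 sites were narrow in absolute terms and wide in relative ones. Of the 13 sites, 10 lay between bases 300 and 309, 1 at base 243 and 2 at base 345. The gene models ran from 525 to 1125 bases, and the sites fell between 26.9% and 57.1% of the length. The 144 other combinations of gene model, known family and site ranged from 1.16% to 97.8%. That range pools many families, and ranges within single families were not compared. The bases left after the site varied from 225 to 822, so that the gene models differed mainly in the stretch behind it.

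All 271 gene models in the file had lengths that are multiples of 3, so base 1 was read as the first base of a codon. With that reading, all 13 mdm-miR858 sites were at codon position 3 and both mdm-miR828 sites at codon position 1. Among the other 144 combinations, 15.3% were at position 3, 31.2% at position 2 and 53.5% at position 1. Sites at a single codon position were common: of the 10 known families with 5 or more gene models, 7 had all their sites at 1 codon position, mdm-miR858 among them.

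The stretches opposite mdm-miR858 varied at 3 of 21 bases, and all 3 were at codon position 3. They lie opposite miRNA bases 7, 16 and 19. In the flanks of the 31-base records, 4 of 10 bases varied, 3 of them at codon position 3. The same count was made in 3 other families with 5 or more gene models and all sites at 1 codon position. In mdm-miR160, 2 of 2 variable bases were at position 3, against 1 of 2 in mdm-miR166 and 1 of 2 in mdm-miR393. It was not made in mdm-miR167, mdm-miR169 and mdm-miR172, whose sites also lay at 1 codon position in each family. Between the sites of mdm-miR828, 1 variable base was at codon position 3 and 1 at position 1, while 7 of the 9 flanking bases differed.

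Pairing with mdm-miR858 was alike on all 13 gene models over most of its length. Base 21, at the 3′ end, was mismatched in 13 of 13, and base 4, within the seed, formed a wobble in 13 of 13. Base 16 was mismatched in 11 of 13 and paired in the MYB66 and high response to osmotic stress 10 gene models, where base 7 formed a wobble instead. Base 19 was paired in 9 gene models, formed a wobble in MYB4, MYB7 and the MYB66 gene model, and was mismatched in MDP0000931057. Bases 8 to 15 were paired in all 13. The score was 2.5 for 10 gene models and 3 for the other 3.

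mdm-miR828 paired with each of its sites at all but 1 base, which was base 16 for MDP0000124555 and base 17 for MDP0000578193, so the score was 1 for both. Among the other known families, 34.0% of 144 combinations scored 1 or less and 59.7% scored 2.5 or less. The seed was not fully paired in 72 of those 144, and a wobble at base 4 occurred in 2 of them. Bases 10 and 11, on each side of the cut, were paired in 15 of 15 member combinations and in 80.6% of the others. The reads began opposite miRNA base 10 in 15 of 15 member combinations and in 79.2% of the others. The 13 mdm-miR858 sites had the same letters opposite miRNA bases 8 to 15, so the member combinations are not independent cases. The others pool many families, and no share per family was taken.

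**Figure D3:**
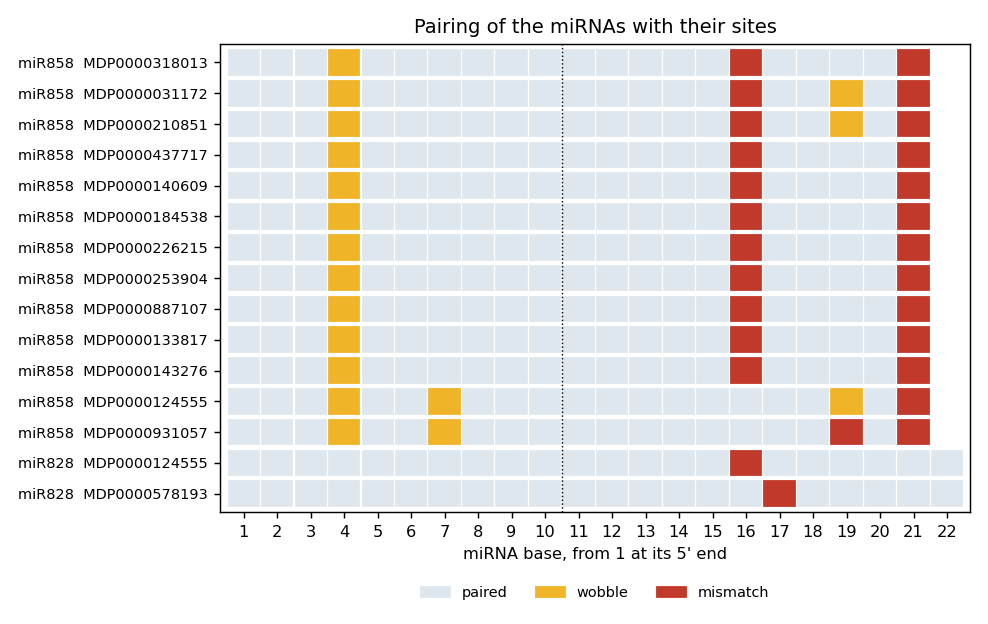
State of each miRNA base (horizontal axis, from the 5′ end) on each gene model (rows): paired (grey), wobble (yellow) or mismatch (red). The dotted line marks the cut between bases 10 and 11. Columns 4 and 21 are filled in all 13 mdm-miR858 rows, and each mdm-miR828 row has 1 mismatch.

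The 13 mdm-miR858 counts took 5 values, and gene models with the same count also had the same 17 bases from the site onward. Reads that begin there cannot be told apart between such gene models from these records, so the same reads may have been counted on each. Gene models alike in both were taken as 1 set of reads. Sets were formed within each miRNA family. Reads paired with more than 1 family thus make a set in each, as at the MYB65 site below. The stretches of 4 sets are shown, with capitals where a base differs from the set with the largest count.
count 1555, MDP0000318013: agacaatgaaataaaaa
count 368, MYB4, MYB7 and MDP0000437717: agacaatgaaatCaaGa
count 180, both MYB12, MYB3 and 2 of the MYB5 gene models: agacaatgaaataaaGa
count 62, MDP0000124555 and MDP0000931057: agaTaatgaaataaaaa
The fifth set, with a count of 170, was that of MDP0000133817 and MDP0000143276. Its stretch has an ambiguous letter at base 16, the base at which the sets of 1555 and 180 differ, so that reads of either could match it.

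These sets differed from the largest by 1 or 2 of 17 bases, and their counts by much more. The count of 1555 (1479 to 1634) was 4.23 times that of 368 (331.4 to 407.6), 8.64 times that of 180 (154.7 to 208.3), 9.15 times that of 170 (145.4 to 197.6) and 25.1 times that of 62. Only the intervals of 180 and 170 overlapped. The set of MDP0000318013 held 66.6% (exact binomial 95% interval 64.6 to 68.5) of the 2335 reads over the 5 sets. The total of 2335 counts the fifth set in full, although it may repeat reads of others.

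**Figure D4:**
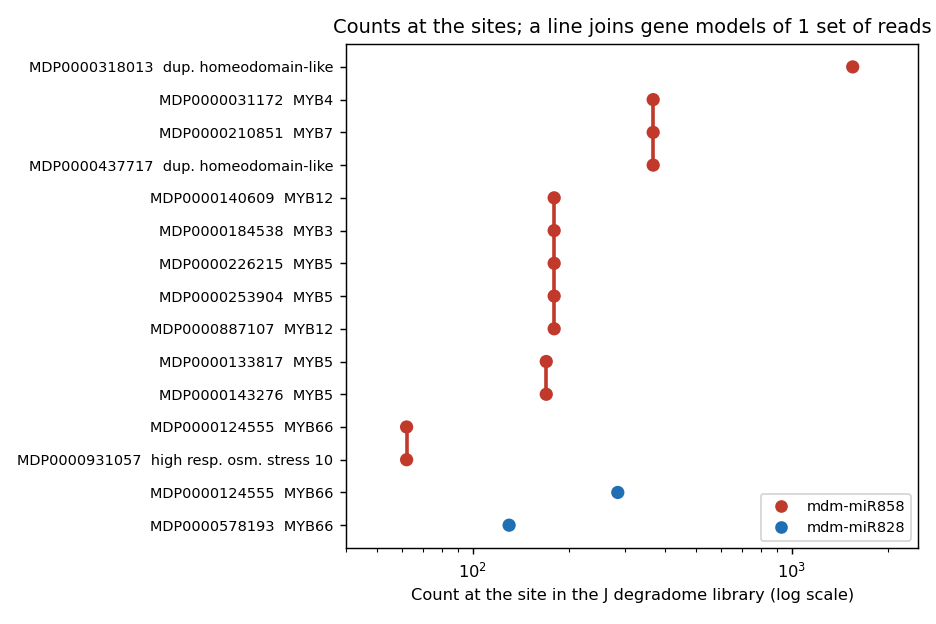
Count at the site in the J degradome library (horizontal axis, log scale) for each gene model of mdm-miR858 (red) and mdm-miR828 (blue). Lines join gene models of 1 set of reads, so that 13 red points stand for 5 counts between 62 and 1555.

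In J, the degradome counts of the members can be set beside their small RNA reads, among the 25 known families with sites. mdm-miR858 ranked 3rd by degradome count, with 2335 over its sets, and 13th by small RNA reads, with 404. It was also 3rd by gene models, behind mdm-miR482 with 30 and mdm-miR156 with 15. mdm-miR828 ranked 12th by degradome count, with 415 over 2 sets, and 25th by small RNA reads, with 1. The family next above it in small RNA reads, mdm-miR399, had 4 small RNA reads and a degradome count of 27. The median count of a set was 180 over the 5 sets of mdm-miR858, 207.5 over the 2 of mdm-miR828 and 61.5 over the 74 of other families. The small RNA and degradome counts come from separate libraries of J leaves, and a degradome count also moves with the level of the target RNA, which was not measured here.

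**Figure D5:**
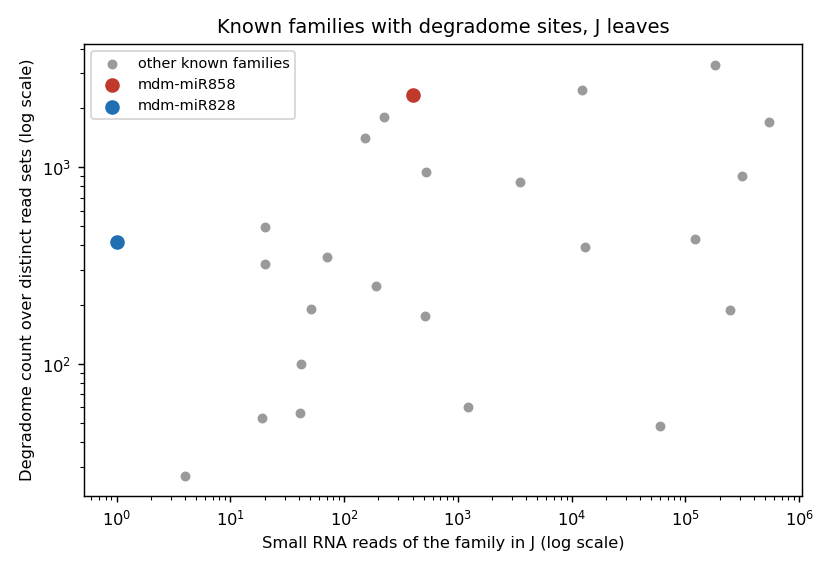
Degradome count summed over distinct sets of reads (vertical axis, log scale) against small RNA reads in J (horizontal axis, log scale) for 25 known families. mdm-miR858 (red) lies at 404 reads and 2335, and mdm-miR828 (blue) at 1 read and 415, at the left edge.

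Of 11 further gene models that the study annotates as MYB or lists under mdm-miR828, 3 had a record, and none of these was with a member. MYB65, a GAMYB-like factor that acts in anthers of Arabidopsis, was paired on MDP0000147309 with mdm-miR159 (score 2) and mdm-miR319 (score 3) at base 964 of 1656, with a count of 321. MYB105, which in Arabidopsis acts at organ boundaries, was paired on MDP0000136541 and MDP0000146675 with predicted miRNAs only, at several neighbouring positions with counts of up to 138 and scores of 3.5 or more. The other 8 were 6 further MYB66 gene models, MDP0000475808 (duplicated homeodomain-like superfamily protein) and MDP0000145557. The study annotates MDP0000145557 as protein phosphatase 2A subunit A2, not as a MYB, and it was taken in because the study lists it under mdm-miR828. No record was found for these 8 among those analysed here. Under the file's smallest count of 25, this does not show that they were uncut.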

How the data were processed

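RNA was taken from pooled A and J leaves. Per the paper's methods, the authors kept fragments between 18 and 30 nt, trimmed adapters and dropped poor reads. The rest were matched to known apple miRNAs with a mismatch allowed, so a count may hold reads that differ from the listed sequence. Other miRNAs were predicted with Mireap. Raw read counts were deposited for 380 entries per library, without normalization. These counts sum to 4272351 (A) and 6275651 (J). The sums repeat the count of a sequence for each name that shares it, so they are not totals of separate reads. For the degradome library, fragments were aligned by the authors to the apple genome, non-coding RNAs were removed, and sites were paired in PairFinder. The deposited position, count and score were used as given. Neither the count nor the score is defined in the file.

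Names were joined to counts by mature sequence. Names with 1 sequence were counted once, at the largest count. Levels were scaled to the clean reads that the study states in its text. Its tabulated read statistics repeat the A values for J, so the J value of the text was used. Equal totals would give mdm-miR858 the ratio of raw counts, 1.70. Intervals were Poisson or Clopper-Pearson 95% limits (SciPy 1.17.1, Python 3.11.15). Only those of the J over A ratio were tested on simulated data, which were drawn with counting error alone. Figures used matplotlib 3.10.9. The site was placed at base 15 of each 31-base record, since all 3 records with a site at that base of their gene model start with ATG. No genome was used, so positions are those within gene models.

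Named were all members, listed MYB gene models with a record, and the 3 known sequences nearest in ratio to mdm-miR858. Members and lists were chosen with earlier results of these data known. Alternatives changed the scale (known totals, with and without mdm-miR156 and mdm-miR535, the median ratio, TMM in edgeR 4.0.16 under R 4.3.3, none), the read minimum, the ratio, the counting of names, and for sites the count, the score, the base opposite the site and the counting of shared reads. Quantitative PCR was not analysed here.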

Additional observations from a re-analysis of the deposited data

How the results depend on the processing

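The J over A ratio of mdm-miR858 was 2.03 scaled to clean reads. It turned to 0.865 with known miRNA totals as the scale. It stayed above 1 but missed the ratio of 2 with such totals that left out mdm-miR156 and mdm-miR535 (1.64), with the median ratio set to 1 (1.26), with TMM (1.28) and with raw counts (1.70). Its call thus held under none of the 5 other scales. The level of mdm-miR828 rests on 1 read. Under the alternatives it lay between 0.510 and 2.39 reads at the depth of A. Its counting interval of 0.0303 to 6.67 is so wide that staying within it says little about stability. Over the 59 known sequences, the 22 called higher in J and 5 in A became 10 and 22 with known totals, 15 and 8 without mdm-miR156 and mdm-miR535, 13 and 13 with the median ratio or TMM, and 17 and 8 with raw counts. With each listed name counted, 76 of 166 were called in place of 27.

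The 13 gene models of mdm-miR858 were 11 at a site count of 100 or more, 10 at a score of 2.5 or less, and 5 when gene models with the same bases from the site on and the same count were taken as 1. Those of mdm-miR828 remained 2 under every alternative for sites. The 1 gene model with both sites became 0 at a count of 100 or more, since its mdm-miR858 site has 62. Each group had 1 library, so none could be left out, and differences between A and J have no replicate check.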
